A study of Mus musculus with 23 samples.

Results

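The genes of Wnt signalling that act at and just below the cell surface were followed in mouse sciatic nerve (SN). A gene was a member if it is protein-coding and its GRCm38 symbol names a Wnt ligand, a frizzled receptor (Fzd), a secreted frizzled-related protein (Sfrp1 to Sfrp5) or a Dickkopf protein (Dkk1 to Dkk4), or if it is Wif1, Lrp5, Lrp6, Axin2, Lef1 or Tcf7. This rule gave 43 members, of which 19 are ligands, 12 receptors and coreceptors, 9 secreted inhibitors and 3 targets or nuclear effectors. They were followed among 43068 genes listed for the crush libraries and 22880 listed for the mutant libraries. The rule uses names and no measured value, and all 43 members were listed in both experiments. No member has the symbol Sfrp3, so the secreted frizzled-related members are Sfrp1, Sfrp2, Sfrp4 and Sfrp5. The Wnt-binding protein Frzb does not match the rule by its symbol and is given with further genes of the pathway.

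Wnt proteins are secreted, lipid-modified ligands that bind frizzled receptors together with the coreceptors Lrp5 or Lrp6. In the canonical branch, receptor binding stops the destruction complex, in which axin is a scaffold, so that beta-catenin accumulates and acts with TCF/LEF factors on target genes, Axin2 among them. Secreted frizzled-related proteins and Wif1 bind Wnt ligands outside the cell, and Dickkopf proteins such as Dkk2 act on the LRP coreceptors. In peripheral nerve, Wnt signalling has been linked to Schwann cell (SC) development, radial sorting of axons and myelination.

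The 2 experiments gave 23 RNA sequencing libraries of whole SN. The crush experiment used wild-type male mice, C57bl6 by the labels and C57BL/6J by the study's methods: nerves at 3 days post crush (dpc) from mice operated at 2 months of age (n = 4), contralateral nerves at the same time (n = 4) and uncrushed nerves labelled as surgery controls (n = 3). By the study's methods the contralateral nerves are the other nerves of the operated mice. The labels do not say that a replicate number marks the mouse, so the fits did not pair them. The iKO experiment used inducible mutants on the C57bl6 background at 3 months post tamoxifen (mpT). Dicer iKO mice were Dicer1 flox/flox and Dgcr8 iKO mice Dgcr8 flox/flox, each with P0-CreERT2, and their controls were Cre-negative, were flox/flox for the same gene and also received tamoxifen, at 8 to 10 weeks of age (n = 3 in each of the 4 groups). Dicer is the nuclease that makes mature microRNAs, and Dgcr8 is the RNA-binding partner of Drosha in the microprocessor, which acts before it. The P0 promoter drives recombination in SCs, while the libraries hold RNA of every cell type in the nerve. The authors chose mutants with affected nerve morphology, because penetrance was incomplete. The study's methods count mice, with as many mice as libraries in each group.

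The libraries held 5594859 to 12806066 counts, so that 3 counts, taken here as the detection limit, correspond to 0.234 to 0.536 CPM (counts scaled to library size). The crush libraries were made with a pico-input kit by their labels and the iKO libraries with another kit, while the study's methods describe 1 stranded total RNA kit for all, and levels were never tested between the experiments. Dicer1 was measured at 88.0, 88.4 and 91.0 CPM in the Dicer controls and at 81.0, 82.8 and 82.4 CPM in the Dicer iKO (log2 fold change -0.11 ± 0.08 SE, adjusted p = 0.357). Dgcr8 was measured at 38.2, 34.8 and 41.9 CPM in the Dgcr8 controls and at 39.3, 53.7 and 41.7 CPM in the Dgcr8 iKO (0.22 ± 0.15, adjusted p = 0.233). Counts over whole transcripts of a nerve with several cell types do not resolve a floxed exon in SCs, so these values do not check the labels. By PCR at 3 mpT, the study itself reports lower Dicer mRNA in the Dicer iKO and lower Dgcr8 mRNA in the Dgcr8 iKO than in controls. The Dicer controls differed among themselves: the summed CPM of 4 perineurial markers was 678 in control 1 and 473 in control 2, above the 136 to 324 CPM of the other 10 iKO libraries, and 165 in control 3. Results that rest on these libraries are given with and without them. Between the Dgcr8 groups single perineurial markers also differed, in opposite directions that the sum does not show, as given with the mutant comparisons.

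In the text, a member was called if it differed at least 2-fold, which is 1 on the log2 scale, with an adjusted p of at most 0.05 in edgeR's quasi-likelihood test over all genes that passed a filter on low counts. Of the 43 members, 28 passed the filter in at least 1 of the 4 comparisons that held calls, 18 were called in at least 1, and 15 were too low to be tested in any. A member that passed the filter only through the group where it is high had to differ, so the counts of called members are a description. In whole nerve, fewer cells of a type and less RNA per cell cannot be told apart.

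**Figure D1:**
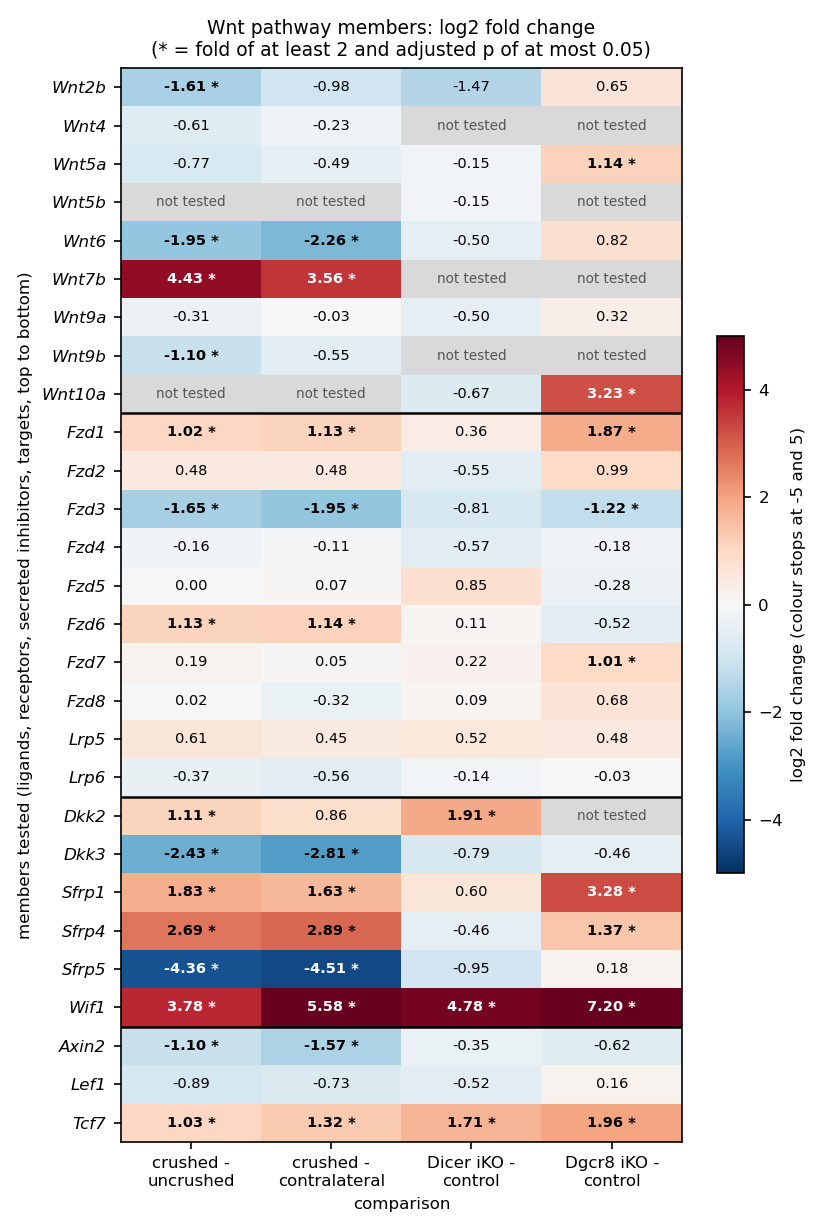
Log2 fold change of the 28 tested members (rows, in blocks of ligands, receptors, secreted inhibitors and targets) in 4 comparisons (columns), with the value printed in each cell, an asterisk for a called member and grey for a member that was not tested. The Wif1 and Tcf7 rows are positive with an asterisk in all 4 columns, while Sfrp5 ranges from -4.51 after crush to 0.18 in the Dgcr8 iKO.

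Sequences are shown for the members on which the results turn. Wif1 had the highest log2 fold change of any member in 3 of the comparisons, and its promoter was read from RefSeq (build GRCm38.p6, chr10:121033754-121034053, plus strand), with the bases from the transcription start onward in capitals.
Wif1 promoter: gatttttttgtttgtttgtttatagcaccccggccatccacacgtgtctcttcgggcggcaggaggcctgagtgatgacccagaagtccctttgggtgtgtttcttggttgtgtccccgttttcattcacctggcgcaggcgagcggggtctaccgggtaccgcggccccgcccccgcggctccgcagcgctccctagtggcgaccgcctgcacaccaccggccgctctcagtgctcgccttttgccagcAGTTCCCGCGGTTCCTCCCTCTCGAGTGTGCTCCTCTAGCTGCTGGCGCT
The window was searched on both strands for the TCF/LEF letters CTTTGAA and CTTTGAT and for the AP-1 letters TGACTCA, and it holds none of them. Promoters were given for 29 of the 43 members, some with several starts. Of these 36 windows, 1 holds CTTTGAA (Dkk1), 2 hold CTTTGAT (Wnt5b and Wnt11) and 1 holds TGACTCA (Wnt5b), against 5.14%, 3.73% and 5.20% of 32851 promoters of the same length. These are matches of letters in a window of 300 bases and say nothing of binding.

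Because both mutants lack a step of microRNA biogenesis, the members were also searched for matches to the seed of let-7f. The study describes this microRNA of the let-7 family as abundant in adult SN. With its assay, the study reports lower let-7f levels in both mutants than in their controls. The mature sequence from RefSeq, made from loci on chromosomes 13 and X, is given with its seed (bases 2 to 8) in capitals.
let-7f-5p: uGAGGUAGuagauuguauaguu
In the longest annotated stretch after the stop codon of each gene (GENCODE M21, GRCm38), the 7 letters that pair with this seed, CTACCTC, were present in 10 of the 43 members and in 9.02% of 21021 protein-coding genes. The stretch had a median length of 1764 bases in the members and of 961 bases in all genes, so the members offered more sequence to match. The 5 members with a match that were tested in the mutants are shown with 26 bases around the match, with the 7 letters in capitals.
Fzd3 (chr14:65200869-65200894, minus strand): gaatatctcctctacCTACCTCacaa
Dkk3 (chr7:112117731-112117756, minus strand): cctgtgtttcagctcCTACCTCactg
Fzd4 (chr7:89412688-89412713, plus strand): acttctgagtttcttCTACCTCacag
Wnt9a (chr11:59333405-59333430, plus strand): cagcctgtgatttctCTACCTCaact
Wnt10a (chr1:74803898-74803923, plus strand): cccagcctggcatgcCTACCTCctgt
In Fzd3, Dkk3, Fzd4 and Wnt9a the 7 letters are followed by an A, and in Wnt10a they are not. Their values in the mutants are given with the mutant comparisons.

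Levels can be compared between genes only per length, for which the deposited TPM, a length-normalized share of transcripts, summed per gene, were used. In the crush libraries a single ribosomal 5S transcript took 61.45 to 71.75% of all TPM, so the other values are small. Among inhibitors, Sfrp5 was the highest in uncrushed nerve at 6.57 ± 2.15 TPM (SD, n = 3). The coreceptor Lrp6 was the highest receptor at 3.15 ± 1.28 TPM, next to the frizzled Fzd3 at 2.06 ± 0.864 TPM. Within each uncrushed library Lrp6 was above Fzd3 (2.19, 4.60 and 2.66 against 1.46, 3.05 and 1.67 TPM). Wnt4 led the ligands at 0.57 ± 0.165 TPM, followed by Wnt6 at 0.317 ± 0.133 TPM. Of the targets, Axin2 at 0.453 ± 0.0611 TPM and Lef1 at 0.387 ± 0.150 TPM lay within their spread of each other, and Tcf7 was lower at 0.113 ± 0.0416 TPM.

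In the Dgcr8 controls, Sfrp5 at 133 ± 28.7 TPM and Dkk3 at 108 ± 21.3 TPM were the highest inhibitors and lay within their spread of each other. Fzd3 at 93.9 ± 4.65 TPM and Lrp6 at 53.5 ± 3.45 TPM were the highest receptors, Wnt6 at 10.6 ± 1.55 TPM the highest ligand and Axin2 at 12.4 ± 3.56 TPM the highest target. Wnt6, Fzd3, Lrp6, Sfrp5 and Axin2 were thus near the head of their roles in both experiments. Wnt4 was not: it was counted at 13.3 to 25.3 CPM in the crush libraries and at 0 to 1.0 CPM in the iKO libraries. Another 4 ligands, Wnt1, Wnt3a, Wnt8b and Wnt9b, had 0 counts in all 12 iKO libraries and up to 1.83 CPM in the crush libraries. These differences lie between experiments whose kits differ by their labels, and biology and method cannot be told apart.

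To ask which members respond to nerve injury, crushed nerves were compared with uncrushed nerves and with contralateral nerves, and both comparisons share the 4 crushed libraries. Crushed nerves had more RNA of the ligand Wnt7b, the inhibitors Wif1, Sfrp4 and Sfrp1, the receptors Fzd1 and Fzd6 and the nuclear effector Tcf7, and less of the inhibitors Sfrp5 and Dkk3, the ligand Wnt6, the receptor Fzd3 and the target Axin2. Against uncrushed nerves, 8 of 26 tested members were called higher, beside 15.3% of 17433 genes tested, and 7 were called lower, beside 21.1%. Against contralateral nerves, 7 of 26 were called higher, beside 14.6% of 16667 genes, and 5 lower, beside 13.6%. The median log2 fold change of the tested members was -0.08 and -0.07, and that of all genes tested was -0.03 and -0.06.

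The ligands moved in opposite directions. Wnt7b, a ligand of the canonical branch in several tissues, was counted at 7.87, 10.9, 8.49 and 8.73 CPM in crushed nerves, at 0.643, 0.545, 0.979 and 0.591 CPM in contralateral nerves and at 0.342, 0.471 and 0.305 CPM in uncrushed nerves. All crushed libraries were thus far above all others, which lay near the detection limit. Its log2 fold change was 4.43 ± 0.28 (SE; adjusted p = 5.08e-08) against uncrushed and 3.56 ± 0.22 (adjusted p = 2.79e-09) against contralateral nerves. Wnt7b lies on chromosome 15 (GRCm38, 85535437 to 85582473, minus strand).

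Wnt6, the second ligand by level, was lower in every crushed library. It was counted at 1.14, 2.14, 1.5 and 1.91 CPM in crushed nerves, at 7.17, 10, 5.09 and 6.70 CPM in contralateral nerves and at 5.64, 6.59 and 5.65 CPM in uncrushed nerves. The log2 fold change was -1.95 ± 0.24 (adjusted p = 1.66e-05) and -2.26 ± 0.25 (adjusted p = 2.01e-06). Wnt2b was counted at 0.525, 0.356, 0.499 and 1.0 CPM after crush, at 1.29, 0.933, 1.08 and 0.985 CPM in contralateral nerves and at 1.71, 1.41 and 1.98 CPM in uncrushed nerves. It was called against uncrushed nerves (-1.61 ± 0.40, adjusted p = 0.0036) and stayed just under the fold limit against contralateral nerves, whose range overlapped that of the crushed libraries (-0.98 ± 0.37, adjusted p = 0.03). Without contralateral 2, contralateral 4 or crushed 4 it was called there too (-1.03, -1.01 and -1.34).

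Wnt9b was counted at 0.962, 0.445, 0.699 and 1.30 CPM after crush, at 0.827, 1.09, 1.17 and 1.48 CPM in contralateral and at 1.62, 1.65 and 1.83 CPM in uncrushed nerves. It was called against uncrushed nerves only (-1.10 ± 0.38, adjusted p = 0.0238), and without crushed 2, crushed 3 or any 1 of the uncrushed libraries its adjusted p was 0.0509 to 0.0671. Of the ligands that were tested and not called, Wnt5a, a ligand best known for signalling outside the beta-catenin branch, had a log2 fold change of -0.77 ± 0.26 (adjusted p = 0.0192) against uncrushed nerves and Wnt4 of -0.61 ± 0.16 (adjusted p = 0.00567). Wnt9a gave -0.31 and -0.03. Wnt5a (-0.49, adjusted p = 0.085), Wnt4 and Wnt9a did not pass the adjusted p against contralateral nerves.

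**Figure D2:**
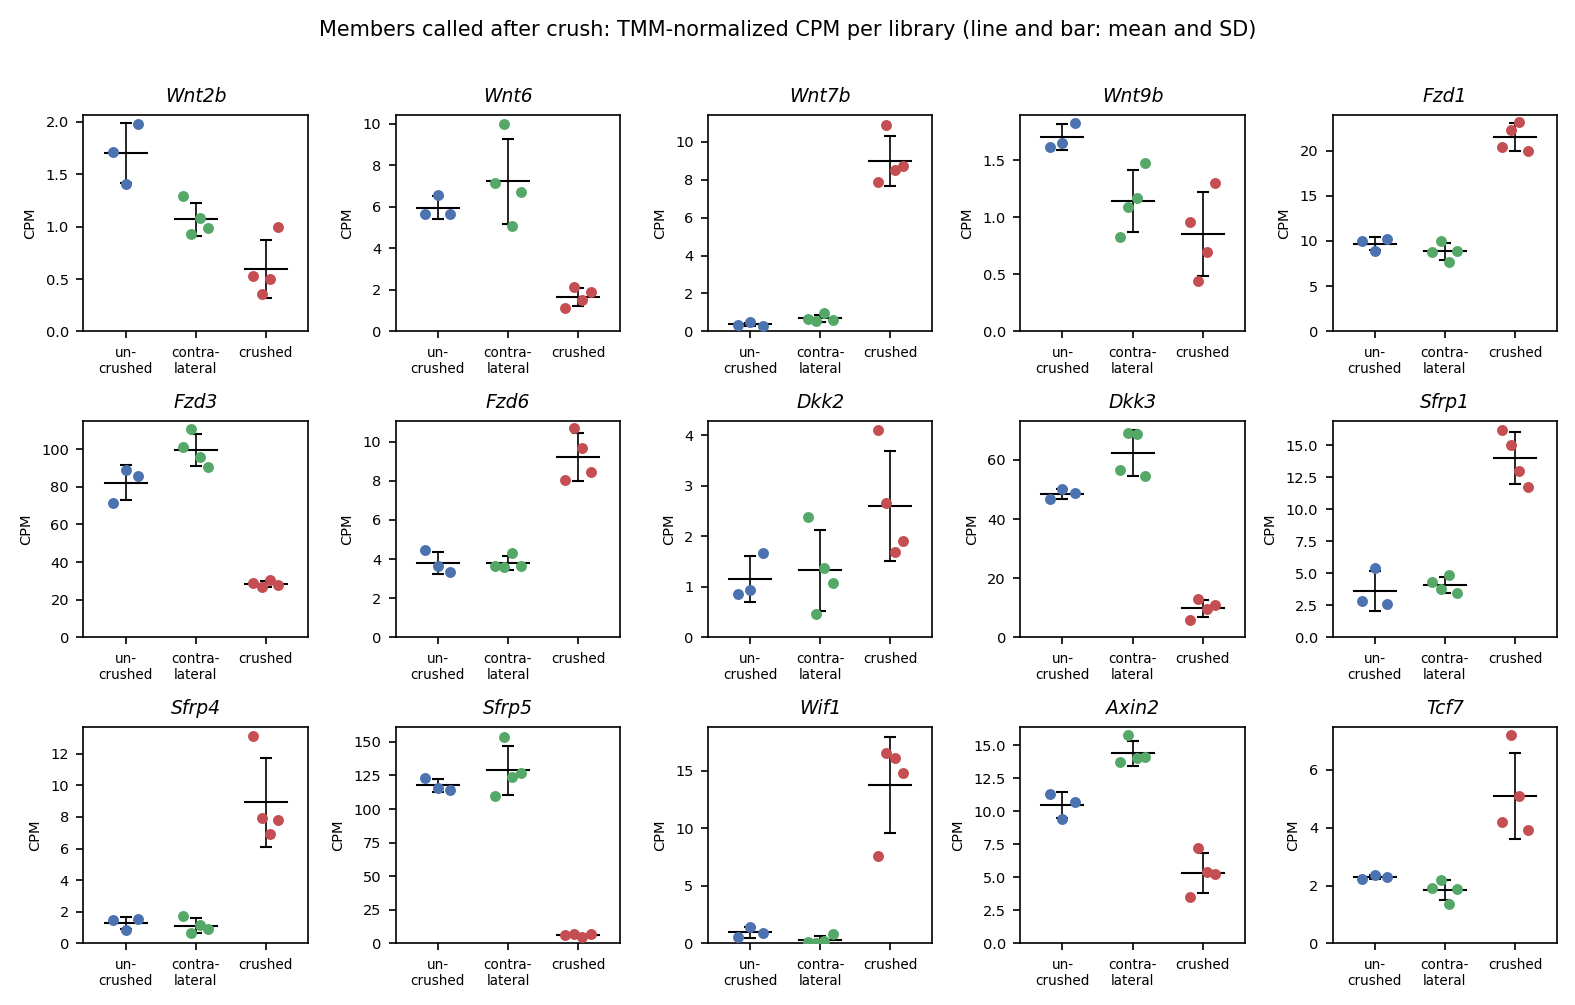
TMM-normalized CPM (linear axes from 0) of the 15 members called after crush, one panel each, for uncrushed (n = 3), contralateral (n = 4) and crushed (n = 4) libraries, with a point for each library and a line and bar for mean and SD. Wnt7b, Sfrp1, Sfrp4, Wif1, Fzd1, Fzd6 and Tcf7 sit above both control groups in all 4 crushed libraries, and Wnt6, Fzd3, Dkk3, Sfrp5 and Axin2 below them.

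Among receptors, 2 frizzled genes rose and 1 fell. Fzd1 was counted at 20.4, 22.3, 23.2 and 20.0 CPM in crushed nerves, at 8.82, 9.96, 7.73 and 8.87 CPM in contralateral and at 10, 8.94 and 10.2 CPM in uncrushed nerves. Fzd6, which like Fzd3 is known for planar cell polarity signalling, was counted at 8.05, 10.7, 9.69 and 8.43 CPM after crush, at 3.67, 3.58, 4.31 and 3.64 CPM in contralateral and at 4.44, 3.65 and 3.36 CPM in uncrushed nerves. Both were about doubled with no overlap between groups: the log2 fold changes were 1.02 ± 0.11 (adjusted p = 6.79e-06) and 1.13 ± 0.11 (adjusted p = 3.04e-07) for Fzd1, and 1.13 ± 0.17 (adjusted p = 0.000122) and 1.14 ± 0.14 (adjusted p = 5.66e-06) for Fzd6. Fzd1 against uncrushed nerves lay at the fold limit and gave 0.98 to 1.0 without crushed 2, crushed 3 or uncrushed 2.

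Fzd3 was counted at 29.0, 26.7, 30.6 and 27.6 CPM in crushed nerves against 101, 111, 95.8 and 90.6 CPM in contralateral and 71.5, 89.1 and 85.8 CPM in uncrushed nerves. It was thus lower in every crushed library than in any control library, by -1.65 ± 0.10 on the log2 scale (adjusted p = 5.04e-08) and -1.95 ± 0.09 (adjusted p = 1.55e-10). The coreceptors moved little: Lrp5 by 0.61 ± 0.13 and 0.45 ± 0.13, and Lrp6 by -0.37 ± 0.10 and -0.56 ± 0.07, each with an adjusted p under the limit and a fold change under 2. Fzd2, Fzd4, Fzd5, Fzd7 and Fzd8 had log2 fold changes between -0.32 and 0.48, and none passed the adjusted p. Fzd9 and Fzd10 were too low to be tested.

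All 6 tested secreted inhibitors were called in at least 1 crush comparison, and they moved in both directions. Wif1 was counted at 7.61, 16.6, 16.1 and 14.8 CPM in crushed nerves, at 0.0919, 0, 0.196 and 0.788 CPM in contralateral and at 0.513, 1.41 and 0.916 CPM in uncrushed nerves. Crushed 1 was the lowest of the crushed libraries and still above every control library. The log2 fold change was 3.78 ± 0.37 (adjusted p = 2.74e-06) against uncrushed and 5.58 ± 0.46 (adjusted p = 7.13e-08) against contralateral nerves.

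Sfrp4 was counted at 13.1, 7.92, 6.89 and 7.83 CPM after crush, at 1.75, 0.622, 1.17 and 0.887 CPM in contralateral and at 1.45, 0.824 and 1.53 CPM in uncrushed nerves. Sfrp1 was counted at 16.2, 15, 13.0 and 11.7 CPM after crush, at 4.32, 3.81, 4.89 and 3.45 CPM in contralateral and at 2.82, 5.41 and 2.60 CPM in uncrushed nerves. Neither overlapped the controls. Sfrp4 rose by 2.69 ± 0.32 (adjusted p = 1.29e-05) and 2.89 ± 0.30 (adjusted p = 7.47e-07) on the log2 scale, and Sfrp1 by 1.83 ± 0.23 (adjusted p = 1.99e-05) and 1.63 ± 0.14 (adjusted p = 1.65e-07).

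Sfrp5 went the other way. It was counted at 6.39, 6.76, 4.89 and 6.82 CPM in crushed nerves, at 110, 154, 124 and 127 CPM in contralateral and at 123, 116 and 114 CPM in uncrushed nerves. The log2 fold change was -4.36 ± 0.12 (adjusted p = 1.35e-10) and -4.51 ± 0.14 (adjusted p = 2.95e-12), so that the inhibitor with the highest level per length in uncrushed nerve had the lowest log2 fold change of all members. Dkk3, a divergent Dickkopf protein, was counted at 5.95, 13.0, 9.49 and 10.8 CPM after crush, at 56.6, 69.1, 68.9 and 54.5 CPM in contralateral and at 46.7, 50 and 48.8 CPM in uncrushed nerves. It fell by 2.43 ± 0.18 (adjusted p = 2.3e-07) and 2.81 ± 0.17 (adjusted p = 2.73e-09) on the log2 scale.

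Dkk2 was counted at 4.11, 2.67, 1.70 and 1.91 CPM after crush, at 2.39, 0.467, 1.37 and 1.08 CPM in contralateral and at 0.854, 0.941 and 1.68 CPM in uncrushed nerves. It was called against uncrushed nerves (1.11 ± 0.40, adjusted p = 0.0268) and overlapped the contralateral nerves (0.86 ± 0.40, adjusted p = 0.0721). Without crushed 1, crushed 2, uncrushed 1 or uncrushed 2 its adjusted p against uncrushed nerves was 0.051 to 0.0953. Without contralateral 1 it was called against contralateral nerves (1.32 ± 0.41, adjusted p = 0.0129). Dkk1, Dkk4 and Sfrp2 were too low to be tested, with at most 0.962 CPM in any crush library.

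The 3 targets and effectors did not move together. Axin2, a feedback inhibitor often read as a reporter of canonical signalling, was counted at 3.50, 7.21, 5.39 and 5.22 CPM in crushed nerves, at 13.7, 15.8, 14.0 and 14.1 CPM in contralateral and at 11.3, 9.41 and 10.7 CPM in uncrushed nerves. It fell by 1.10 ± 0.20 (adjusted p = 0.0005) against uncrushed and by 1.57 ± 0.16 (adjusted p = 9.36e-07) against contralateral nerves, with -0.96 without crushed 1 and -1.0 without uncrushed 1 in the former. Tcf7, which encodes TCF1, was counted at 4.20, 7.21, 5.09 and 3.91 CPM in crushed nerves, at 1.93, 2.18, 1.37 and 1.87 CPM in contralateral and at 2.22, 2.35 and 2.29 CPM in uncrushed nerves. It rose by 1.03 ± 0.25 (adjusted p = 0.00303) and 1.32 ± 0.23 (adjusted p = 0.000157), and without crushed 2 the former was 0.82. Lef1, a factor of the same family, gave -0.89 ± 0.19 (adjusted p = 0.00129) and -0.73 ± 0.15 (adjusted p = 0.000805), lower in every crushed library and under the fold limit, which it reached against uncrushed nerves without crushed 3 (-1.0). Tcf7 is also known in T cells, and the summed CPM of 6 lymphocyte markers was 3.59 to 4.71 in crushed, 4.40 to 5.62 in contralateral and 7.43 to 10.5 in uncrushed nerves, so that it was not higher after crush.

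Markers of several cell types moved with these values. The summed CPM of 7 SC markers, mostly of myelin, was 2090 to 3200 in crushed and 36300 to 55300 in control nerves, and 5 of 7 were called lower against uncrushed nerves. All 6 macrophage markers were called higher, with sums of 272 to 548 against 38.9 to 72.9 CPM, as were all 4 markers of dividing cells (768 to 1160 against 16.6 to 33.6 CPM) and all 3 tested of 4 repair SC markers (1320 to 1970 against 31.6 to 49.8 CPM). Neutrophil markers summed to 20.9 to 36.8 against 4.51 to 11.3 CPM, and 1 of 2 tested was called higher against uncrushed nerves. Mast cell markers summed to 0.178 to 5.99 against 0.763 to 32.4 CPM, and 3 of 3 tested were called lower against contralateral nerves. Of 6 fibroblast markers 1 was called, higher, with sums of 1960 to 2430 against 2340 to 3170 CPM. Perineurial markers summed to 30.7 to 37.8 against 45.6 to 59.5 CPM, and of 3 tested 0 were called. In each crush comparison 1 of these 3 was lower at an adjusted p under 0.05 in edgeR's test, with a fold change under 2. Skeletal muscle markers summed to 1.0 to 2.44 CPM in the crush libraries, near the detection limit. The part of these cell types in the changes of the members was not tested.

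Contralateral and uncrushed nerves were compared to ask whether a remote injury moves the members. In edgeR's test 0 of 25 tested members were called in either direction, beside 0% of 17722 genes called higher and 0% called lower. It gave 4 of the 25 members an unadjusted p under 0.05, beside 3165 of the 17722 genes. DESeq2 called 0 members too, and 0 genes higher and 32 lower over the genes it tested. The log2 fold changes of the members ranged from -0.73 to 0.38, and Wif1 and Wnt7b were too low in both groups to be tested.

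Of 59 further genes of the pathway, 52 were tested after crush. Against uncrushed nerves, 7 were called higher and 17 lower, beside 15.3% and 21.1% of 17433 genes tested. Against contralateral nerves, 6 were called higher and 18 lower, beside 14.6% and 13.6% of 16667 genes. The medians were -0.17 and -0.42, and those of all genes tested were -0.03 and -0.06. Lgr6, a receptor for R-spondins, gave the largest rise at 4.06 ± 0.17 and 3.81 ± 0.14. Next were Nkd2, which binds dishevelled and dampens Wnt signalling (2.25 ± 0.11 and 2.16 ± 0.11), Tpbg, a membrane protein that restrains canonical Wnt signalling (2.04 ± 0.32 and 2.79 ± 0.31), the Wnt5a receptor Ror2 (1.61 ± 0.22 against uncrushed) and Wls, which carries Wnt ligands to the surface (1.39 ± 0.12 against contralateral). The ligand carrier and the R-spondin receptor thus rose while the largest fall was that of an R-spondin, Rspo1 (-3.87 ± 0.19 and -4.21 ± 0.16). Daam2 (-2.70 ± 0.10 and -2.87 ± 0.11), a formin of the planar polarity branch, Prickle2 of the same branch (-2.41 ± 0.14 and -2.65 ± 0.12) and the Wnt-binding protein Frzb (-2.33 ± 0.11 and -2.76 ± 0.13) followed. Each of these had an adjusted p under 0.05 in edgeR's test.

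To ask how the members stand when microRNA biogenesis is lost in adult SCs, each mutant was compared with its own controls. Wif1 and Tcf7 were higher in both mutants. The Dgcr8 iKO also had more Sfrp1, Sfrp4, Wnt10a, Wnt5a, Fzd1 and Fzd7 and less Fzd3, and the Dicer iKO had more Dkk2. In the Dicer iKO 3 of 25 tested members were called higher, beside 7.37% of 13045 genes, and 0 were called lower, beside 1.64%. DESeq2 called 0 members lower too. In edgeR's test 8 of the 25 members had an unadjusted p under 0.05 in either direction, beside 4736 of the 13045 genes. In the Dgcr8 iKO 8 of 23 tested members were called higher, beside 13.4% of 13252 genes, and 1 was called lower, beside 6.99%. The members' median log2 fold change was -0.15 in the Dicer and 0.65 in the Dgcr8 iKO, and that of all genes tested was -0.01 in both.

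**Figure D3:**
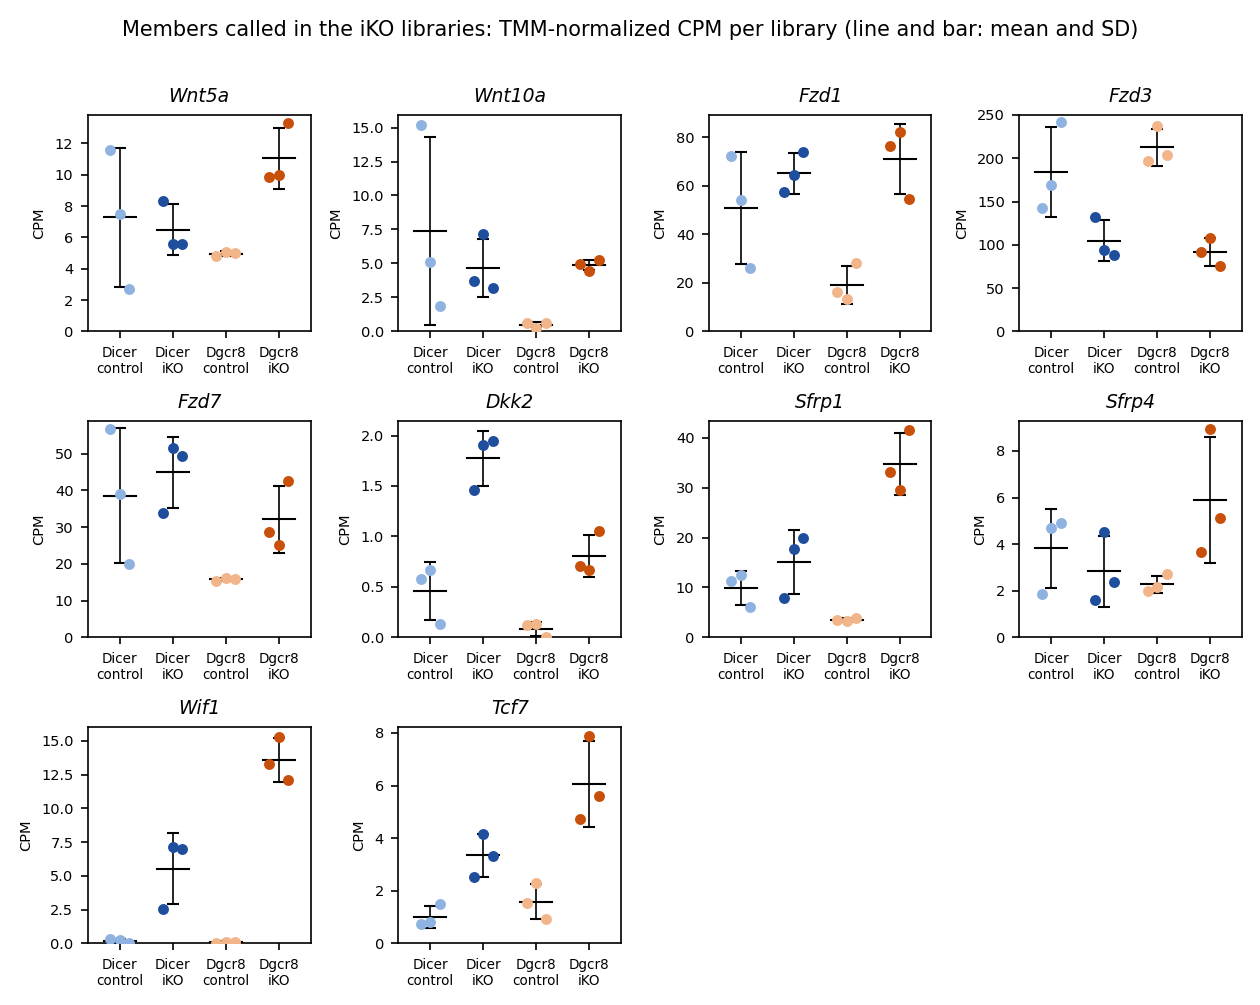
TMM-normalized CPM (linear axes from 0) of the 10 members called in an iKO comparison, one panel each, with a point for each library (n = 3 per group) and a line and bar for mean and SD. Wif1 lies near 0 in all 6 control libraries and between 2.52 and 15.3 CPM in all 6 mutant libraries, and the Dicer controls are spread widely for Wnt10a, Wnt5a, Fzd1 and Fzd7.

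Wif1 was counted at 2.52, 7.13 and 6.96 CPM in the Dicer iKO and at 0.287, 0.267 and 0 CPM in the Dicer controls. In the Dgcr8 iKO it was counted at 13.3, 15.3 and 12.1 CPM and in the Dgcr8 controls at 0, 0.134 and 0.104 CPM. All 6 control libraries were below 3 counts each, and all 6 mutant libraries were above them. The log2 fold change was 4.78 ± 0.73 in the Dicer iKO (adjusted p = 0.00587) and stayed called without any 1 library. In the Dgcr8 iKO the call was past the limit too (adjusted p = 1.12e-06), and since the controls held 2 counts in all against 378, the ratio of CPM is given with its exact 95% counting interval, 188.9 (51.9 to 1570).

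Sfrp1 was counted at 33.1, 29.5 and 41.5 CPM in the Dgcr8 iKO and at 3.41, 3.22 and 3.95 CPM in its controls, without overlap (3.28 ± 0.19, adjusted p = 1.12e-06). In the Dicer experiment its groups overlapped, with 7.82, 17.7 and 19.9 CPM in the iKO and 11.3, 12.4 and 6.11 CPM in the controls (0.60 on the log2 scale, not called). Sfrp4 was counted at 3.65, 8.92 and 5.12 CPM in the Dgcr8 iKO and at 2.0, 2.14 and 2.70 CPM in the controls (1.37 ± 0.36, adjusted p = 0.00957), and gave 0.93 without Dgcr8 iKO 2. In the same order, these iKO libraries held 0, 7.02 and 0.116 CPM of the adipocyte marker Adipoq and 0, 7.69 and 0 CPM of Cidec. The part of fat in the Sfrp4 values was not tested. Sfrp4 was not called in the Dicer iKO, where 1.59, 4.52 and 2.37 CPM stood against 1.87, 4.68 and 4.89 CPM.

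Dkk2 was counted at 1.46, 1.91 and 1.95 CPM in the Dicer iKO and at 0.574, 0.669 and 0.136 CPM in its controls. The groups did not overlap (1.91 ± 0.54, adjusted p = 0.0411), but without any 1 of the 6 libraries the adjusted p was 0.0553 to 0.14, and in DESeq2 it was 0.0565. In the Dgcr8 libraries Dkk2 was too low to be tested, with 0.706, 0.664 and 1.05 CPM in the iKO and 0.118, 0.134 and 0 CPM in the controls. Dkk3 was lower in every mutant library than in any library of its own controls, at 87.6, 77.0 and 95.2 against 126, 166 and 158 CPM for Dicer and at 146, 145 and 133 against 207, 162 and 211 CPM for Dgcr8. The change was -0.79 ± 0.14 on the log2 scale for Dicer (adjusted p = 0.00864) and -0.46 ± 0.14 for Dgcr8 (adjusted p = 0.0192), both under the fold limit.

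Sfrp5, which fell most after crush, was not called in the mutants. It was counted at 148, 206 and 85.7 CPM in the Dgcr8 iKO against 105, 130 and 153 CPM (0.18), and at 161, 207 and 193 CPM in the Dicer iKO against 516, 380 and 194 CPM in Dicer controls 1, 2 and 3 (-0.95 ± 0.31, adjusted p = 0.0679). Without Dicer control 3 the latter was -1.26 ± 0.16 (adjusted p = 0.00239).

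Among ligands, Wnt10a was counted at 4.94, 4.46 and 5.24 CPM in the Dgcr8 iKO and at 0.588, 0.268 and 0.623 CPM in its controls (3.23 ± 0.38, adjusted p = 6.45e-05). Wnt5a was counted at 9.88, 9.96 and 13.3 CPM in the Dgcr8 iKO and at 4.82, 5.09 and 4.99 CPM in its controls (1.14 ± 0.21, adjusted p = 0.00117), and gave 1.0 without Dgcr8 iKO 3. Both were clear of the controls in the Dgcr8 experiment and not in the Dicer experiment. There Wnt10a was counted at 3.71, 7.13 and 3.20 CPM in the iKO and at 15.2, 5.08 and 1.90 CPM in controls 1, 2 and 3, and Wnt5a at 8.35, 5.56 and 5.57 against 11.6, 7.49 and 2.72 CPM. Wnt6 was higher in every Dgcr8 iKO library and under the fold limit (0.82 ± 0.21, adjusted p = 0.00947; 1.0 and called without Dgcr8 iKO 3), in the opposite direction to its change after crush. Wnt7b, the ligand with the largest rise after crush, was too low to be tested in the iKO libraries, with at most 2.01 CPM.

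Receptors followed. Fzd1 was counted at 76.5, 82.1 and 54.7 CPM in the Dgcr8 iKO and at 16.1, 13.4 and 28.2 CPM in its controls (1.87 ± 0.25, adjusted p = 0.000145). Fzd7 was counted at 28.7, 25.1 and 42.4 against 15.3, 16.1 and 16.0 CPM (1.01 ± 0.19, adjusted p = 0.00143), at the fold limit, with 0.77 without Dgcr8 iKO 3 and 0.99 without Dgcr8 control 1. In the Dicer experiment the groups of Fzd1 (57.3, 64.3 and 74.1 against 72.2, 54.2 and 26.2 CPM) and of Fzd7 (33.9, 51.5 and 49.4 against 56.7, 38.9 and 20.0 CPM) overlapped. Fzd2 (0.99 ± 0.21, adjusted p = 0.00315), Fzd8 (0.68 ± 0.15, adjusted p = 0.00448) and Lrp5 (0.48 ± 0.17, adjusted p = 0.0392) also passed the adjusted p in the Dgcr8 iKO, under the fold limit. Fzd2 was past that limit without Dgcr8 control 2, Dgcr8 control 3 or Dgcr8 iKO 2 (1.14, 1.08 and 1.09).

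Fzd3 was the receptor that was lower in both mutants. It was counted at 91.2, 108 and 75.6 CPM in the Dgcr8 iKO against 197, 237 and 204 CPM in its controls (-1.22 ± 0.15, adjusted p = 0.000106), and at 132, 93.7 and 88.3 CPM in the Dicer iKO against 142, 169 and 242 CPM in its controls (-0.81 ± 0.23, adjusted p = 0.0439, under the fold limit). Without Dicer control 3 the latter was -0.56 ± 0.18 (adjusted p = 0.0597), and without Dicer iKO 1 it was called (-1.01 ± 0.23, adjusted p = 0.03). Of the 5 members shown above with let-7f seed letters, Fzd3 and Dkk3 thus passed the adjusted p in both mutants with all libraries, in each case lower. Wnt10a passed it in the Dgcr8 iKO, higher, and Fzd4 (-0.57 and -0.18) and Wnt9a (-0.50 and 0.32) did not pass it in the Dicer and Dgcr8 iKO. A match is a description of letters and not a shown target.

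Fzd6, which rose after crush, was not called in the mutants: it was counted at 9.41, 8.63 and 5.24 CPM in the Dgcr8 iKO and at 12.6, 10.6 and 10.2 CPM in its controls, lower without overlap (-0.52 ± 0.24, adjusted p = 0.0965).

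Tcf7 was counted at 2.52, 4.17 and 3.34 CPM in the Dicer iKO and at 0.718, 0.802 and 1.49 CPM in its controls (1.71 ± 0.41, adjusted p = 0.0251). In the Dgcr8 iKO it was counted at 4.71, 7.88 and 5.59 CPM and in the controls at 1.53, 2.28 and 0.935 CPM (1.96 ± 0.36, adjusted p = 0.00122). Neither pair of groups overlapped. In the Dicer iKO the adjusted p was 0.0586 without Dicer control 1, 0.102 without Dicer control 2, 0.0999 without Dicer iKO 2 and 0.0919 without Dicer iKO 3. The 6 lymphocyte markers summed to 16.2 to 24.8 CPM in the Dgcr8 iKO against 0.268 to 0.416 CPM, with Cd3g, Cd4 and Cd8a, the 3 that were tested, all called higher. In the Dicer iKO they summed to 11.5 to 27 against 0.543 to 2.58 CPM, with Cd4, the only 1 tested, called higher. Their part in the Tcf7 values was not tested. Axin2 gave -0.35 in the Dicer iKO and -0.62 ± 0.24 in the Dgcr8 iKO (adjusted p = 0.0601), with 10.9, 10.6 and 7.57 CPM in the latter against 16.9, 17.8 and 10.1 CPM. Lef1 gave -0.52 and 0.16, and neither passed the test. After crush and in both mutants, Tcf7 was thus called higher without a called rise of Axin2 or Lef1.

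Cell type markers moved with the mutants too. The 7 SC markers summed to 14500 to 28200 CPM in the Dgcr8 iKO against 42200 to 45900 CPM in its controls, and to 22200 to 27300 CPM in the Dicer iKO against 27900 to 46600 CPM. Macrophage markers summed to 649 to 1420 against 136 to 165 CPM for Dgcr8, with 6 of 6 called higher, and to 810 to 1400 against 139 to 408 CPM for Dicer, with 5 of 6. Fibroblast markers summed to 8690 to 11200 against 4100 to 5180 CPM for Dgcr8, with 4 of 6 called higher, and to 12200 to 13100 against 3800 to 11300 CPM for Dicer, with 2 of 6. Of 4 perineurial markers, 2 were called higher in the Dgcr8 iKO (sums of 158 to 220 against 136 to 183 CPM) and 0 in the Dicer iKO (187 to 324 against 165 to 678 CPM), where edgeR gave 1 an unadjusted p under 0.05. The Dgcr8 sums hide opposite moves. Slc2a1, their largest part, was at 102, 110 and 90.6 CPM in the iKO against 129, 164 and 149 CPM. Cldn1 was at 98.0, 92.5 and 60.1 against 6.24, 14.7 and 24.6 CPM. Perp was at 14.4, 11.2 and 6.41 against 0.824, 2.81 and 4.88 CPM, and Lypd2 overlapped its controls. All 4 markers of dividing cells were called higher in both mutants, with sums of 198 to 293 against 7.58 to 11.0 CPM for Dgcr8 and of 73.3 to 107 against 5.30 to 13.5 CPM for Dicer. The 3 tested of 4 repair SC markers were called higher in both, with sums of 263 to 341 against 44.9 to 52.5 CPM for Dgcr8 and of 169 to 214 against 37.9 to 90.4 CPM for Dicer. Neutrophil markers were called in 2 of 2 tested for Dgcr8 (16.3 to 27.8 against 1.53 to 2.70 CPM) and in 1 of 1 for Dicer (18.6 to 29.2 against 1.77 to 6.17 CPM). These sums were mostly Csf3r, at 20.1, 14.3 and 25.5 CPM in the Dgcr8 iKO and at 18.3, 28.7 and 27.4 CPM in the Dicer iKO. Retnlg was at 1.53, 1.90 and 1.40 CPM in the Dgcr8 iKO and at 0, 0 and 0.418 CPM in the Dicer iKO. S100a8 and S100a9 did not exceed 0.815 CPM in any iKO library. Mast cell markers were called in 4 of 4 for Dgcr8 (78.2 to 120 against 7.48 to 40.7 CPM) and in 0 of 4 for Dicer (230 to 311 against 32.3 to 193 CPM), where edgeR gave 2 an unadjusted p under 0.05. The part of these cells in the members' values was not tested.

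Whether the mutants differ from each other was tested as the Dgcr8 effect minus the Dicer effect over the 12 libraries, with the adjusted p alone as the limit. In edgeR's test 0 of 25 tested members passed, beside 0.00738% of 13552 genes higher and 0.00738% lower. It gave 12 of the 25 members an unadjusted p under 0.05, beside 1861 of the 13552 genes. DESeq2 called 2 members, Sfrp1 and Wnt10a. The member nearest to the limit was Sfrp1, with a difference of 2.68 ± 0.46 on the log2 scale (adjusted p = 0.0997). Without a filter on counts edgeR gave Sfrp1 an adjusted p of 0.0224. By edgeR's filtered test the members called in 1 mutant and not in the other are therefore not shown to differ between mutants with all 12 libraries, while Sfrp1 and Wnt10a rest on the tool or the filter.

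The edgeR outcome turned on Dicer control 3, without which the reference is controls 1 and 2, the libraries with the highest perineurial sums. Without it 7 members passed, all with a more positive change in the Dgcr8 iKO: Sfrp1 (2.94 ± 0.42, adjusted p = 0.00503), Wnt10a (4.36 ± 0.69, adjusted p = 0.00811), Wnt6 (1.62 ± 0.29, adjusted p = 0.0131), Fzd2 (1.94 ± 0.36, adjusted p = 0.0163), Fzd1 (1.83 ± 0.35, adjusted p = 0.0166), Wnt5a (1.69 ± 0.36, adjusted p = 0.0259) and Wnt2b (2.59 ± 0.63, adjusted p = 0.0471). Without any other single library 0 members passed. In the Dicer comparison without control 3, Wnt2b (-1.93 ± 0.44, adjusted p = 0.0203) and Sfrp5 were called lower and Fzd5 higher (1.01 ± 0.29, adjusted p = 0.0407). With controls 1 and 2 left out instead, a setting added after the data were seen, control 3 was the lone Dicer control and was assumed to vary like the other groups. Then 0 members passed the test of the difference. In the Dicer comparison Wif1 stayed called higher, Fzd1 (1.31 ± 0.20, adjusted p = 0.00376) and Fzd7 (1.16 ± 0.26, adjusted p = 0.0167) were called higher and Fzd3 lower (-1.21 ± 0.21, adjusted p = 0.00714), while Tcf7 (adjusted p = 0.234) and Dkk2 (adjusted p = 0.0633) missed the limit. The members called in the Dicer iKO, Wif1 apart, thus changed with the controls used.

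Of the 25 members tested in the Dicer comparison, 17 were lowest in control 3 among the 3 controls. Wnt2b was counted at 35.5, 17.9 and 5.02 CPM in Dicer controls 1, 2 and 3, Fzd2 at 180, 101 and 39.0 CPM and Wnt6 at 54.0, 47.1 and 22.8 CPM. The highest control was at least 2 times the lowest for 13 of these members among the Dicer controls with a lowest value above 0, and for 4 among the Dgcr8 controls. The same counts were not made over all genes tested, so they do not set the members apart from other genes. The perineurial marker sum of 678, 473 and 165 CPM had the same order, and the SC marker sum of 27900, 36400 and 46600 CPM the reverse. How far cell makeup sets these members' levels was not tested, and the labels give no reason for the spread.

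**Figure D4:**
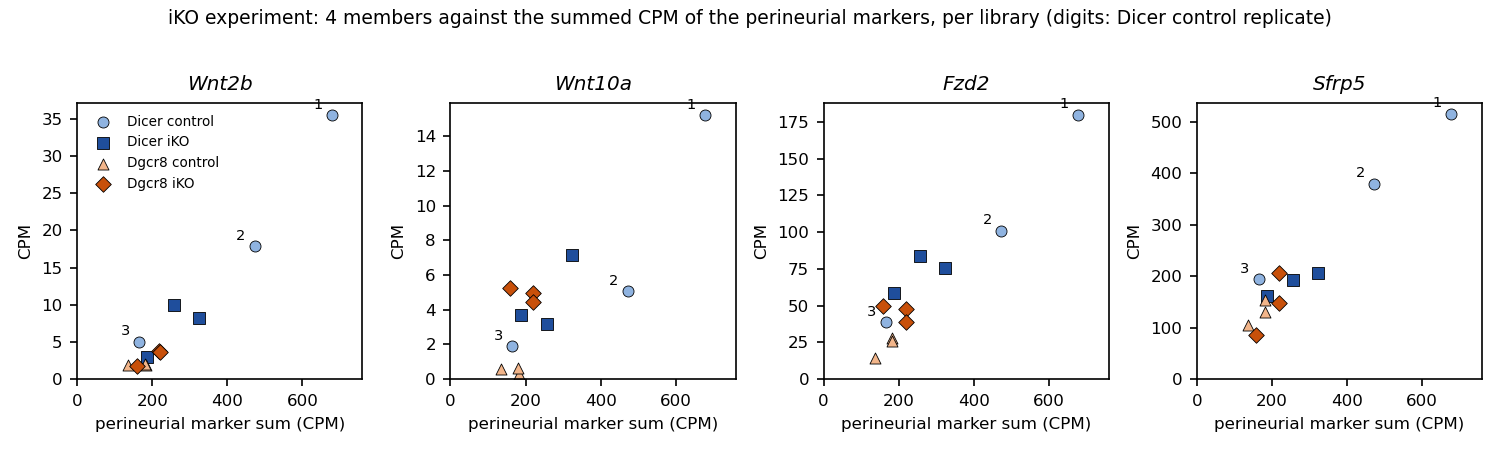
CPM of Wnt2b, Wnt10a, Fzd2 and Sfrp5 (vertical axes, linear from 0) against the summed CPM of 4 perineurial markers (horizontal axes) in each of the 12 iKO libraries, with the Dicer controls numbered. Dicer control 1, at 678 CPM of the markers, is the highest library in each panel, and Dicer control 3, at 165 CPM, lies among the other groups. In the Dgcr8 libraries Slc2a1 is the largest part of the sum.

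Of the 59 further pathway genes, 50 were tested in each mutant. In the Dicer iKO 1 was called higher, Nkd2 (1.90 ± 0.21), beside 7.37% of 13045 genes tested. There 2 were called lower, Rspo1 (-1.26 ± 0.11) and the planar polarity gene Prickle1 (-1.16 ± 0.27), beside 1.64%. In the Dgcr8 iKO 6 were called higher, beside 13.4% of 13252 genes, with Nkd2 (2.21 ± 0.14), Lgr6 (2.08 ± 0.36), Tpbg (1.84 ± 0.31) and Ror2 (1.39 ± 0.27) leading. There 4 were called lower, beside 6.99%: Rspo1 (-2.20 ± 0.35), Frzb (-1.31 ± 0.20), Prickle2 (-1.29 ± 0.15) and the repressor-type TCF gene Tcf7l1 (-1.20 ± 0.35). Nkd2 rose and Rspo1 fell in each of the crush and iKO comparisons with calls. No gene of this list passed the test of the difference between mutants. There edgeR gave 6 of 51 an unadjusted p under 0.05, beside 1861 of 13552 genes.

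The 15 members that were not tested in the 4 comparisons with calls are Wnt1, Wnt2, Wnt3, Wnt3a, Wnt7a, Wnt8a, Wnt8b, Wnt10b, Wnt11, Wnt16, Fzd9, Fzd10, Dkk1, Dkk4 and Sfrp2. None exceeded 3.01 CPM in any library. With all libraries and the filter, differences in these genes could not be detected. Some passed the filter once a library was left out, and against uncrushed nerves Wnt8b was then called lower without crushed 3 (-1.10, adjusted p = 0.0409) or crushed 4 (-1.23, adjusted p = 0.0194) and Wnt16 without uncrushed 2 (-1.57, adjusted p = 0.0126). Annotated genes overlap 13 of the 43 members, 12 of them on the opposite strand, among them Wnt7b, Wnt6, Tcf7, Axin2 and Fzd3. Both kits are stranded by their labels, whether strand was used in counting is not given in the sources used here, and reads from such pairs may be shared.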

How the data were processed

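RNA of whole SN was sequenced as described in the report. Per the study's methods, the authors trimmed reads with Trimmomatic, aligned them to the Ensembl GRCm38 genome with STAR and quantified transcripts with RSEM, and each deposited file holds expected counts and TPM per transcript of 1 library. Here, the transcripts' deposited expected counts were added up for each gene, then rounded, and the TPM of the authors were summed per gene for levels only.

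Low genes were removed by filterByExpr with a minimum count of 10, TMM factors were computed, and edgeR 4.0.16 was used for the test (quasi-likelihood, R 4.3.3, limma 3.58.1) in the groups compared, with Benjamini-Hochberg adjustment over all genes tested. Each SE was derived from the fold change and its F statistic, as their ratio after taking the root of F. DESeq2 1.42.0, RLE normalization, no filter, all groups in 1 fit, a replicate block and leaving out each library were the alternatives, and 2 were added after the data were seen: the block with another number for uncrushed 3, and leaving out Dicer controls 1 and 2. The code was run on simulated data with 1 spread for all genes and changes past the fold limit (median log2 fold change of 1.99 in raised genes). For the crushed and contralateral libraries 199 of 200 changed genes were recovered among 16667, with 1 false call. For the difference between mutants it was 193 of 200, with 6 false calls. Real genes differ in spread, so this checks the code and does not measure power in these nerves. No replicate pair was a copy (chi-square per degree of freedom of 3.86 to 40.3).

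Intervals and detection limits cover counting error only. The study's methods count as many mice as libraries in each group, and the labels do not tie a library to a mouse. Every member was accounted for, with values in every library for those called. The members and gene lists were chosen with earlier results of these data known.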

Additional observations from a re-analysis of the deposited data

Results flagged for a closer look

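In the groups of 4 crush libraries, 54 sets of values of members were searched for a library far from the other 3, by whether its gap to the nearest, as a share of the range, exceeded Dixon's 95% critical value. This was so in 3 sets, where chance gives about 1 in 20. Sfrp4 was at 13.1 CPM in crushed 1 and at 6.89 to 7.92 CPM in the other crushed libraries (0.834 of the range). The adipocyte marker Adipoq was at 2.71, 0.089, 0 and 0.1 CPM in crushed 1 to 4, and its link to Sfrp4 was not tested. Fzd2 was at 11.9 CPM in contralateral 1 and at 6.80 to 7.54 CPM in the others (0.855). Fzd6 was at 4.31 CPM in contralateral 3 and at 3.58 to 3.67 CPM in the others (0.877). Sfrp4 and Fzd6 were called higher after crush against contralateral nerves without any 1 library too, and Fzd2 was not called.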

How the results depend on the processing

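No member changed direction, under any alternative, in a comparison in which it was called. Against uncrushed nerves, 8 members were called higher, and 5 with all groups in 1 fit, where Dkk2 (1.0), Fzd1 (0.92) and Tcf7 (0.94) missed a limit. Leaving out 1 library gave 5 to 8, with 5 without crushed 2. Without a filter Axin2 (-0.87) and Wnt9b (-0.87, adjusted p = 0.0939) missed a limit, and the median of all genes moved by 0.227. All groups in 1 fit added Wnt8b (-1.22), and no filter added Wnt3 (-2.42) and Wnt10b (2.38). Against contralateral nerves no called member was lost under any alternative, and no filter added Wnt2 (2.18), Wnt10b (1.69) and Dkk2 (1.03). In the Dicer iKO, 3 members were called higher, and 1 to 3 without 1 library. There 0 members were called lower, and 0 to 2 without 1 library: 2 without Dicer control 3 and 1 (Fzd3) without Dicer iKO 1. With Dicer controls 1 and 2 left out, 1 was called lower (Fzd3) and 3 higher. For the difference between mutants, 0 members passed, with 1 without a filter, 2 in DESeq2 and 0 to 7 without 1 library, 7 being without Dicer control 3. The Dgcr8 calls stayed within 1.5 times, with Dkk2 added without a filter (3.13) and with all groups in 1 fit (3.11).

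Deviations of same-numbered libraries from their group means had correlations of -0.174 to 0.177 over the comparisons of groups. Crushed and contralateral nerves come from the same operated mice by the study's methods. There same-numbered pairs averaged 0.0527 and other pairs -0.0176. With so few libraries in a group, these values cannot tell whether a number marks a mouse. The fits did not take the numbers as pairs. Uncrushed 3 by its title is numbered 4 in its description, under which its correlations were 0.249 with crushed 4 and 0.192 with contralateral 4. The block then gave 7 members higher and 7 lower after crush (Fzd1 at 1.0 was lost) and 0 between contralateral and uncrushed nerves. With the replicate number as a block, 1 member (Wif1) was called higher in the Dicer iKO, where Tcf7 (adjusted p = 0.0693) and Dkk2 (adjusted p = 0.11) missed the limit, and calls over all genes went from 961 higher and 214 lower to 548 and 92. Dkk2 after crush (adjusted p = 0.0534 against uncrushed) and Fzd7 in the Dgcr8 iKO (0.99) missed a limit too, while Wnt2b against contralateral nerves (-1.0 ± 0.37, adjusted p = 0.0377) and Fzd2 in the Dgcr8 iKO (1.02) reached it. The cause of these changes was not tested. Members under about 0.234 to 0.536 CPM lie at the depth limit.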
